A study of Mus musculus with 3 samples.

Results

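Twist1 occupancy beside genes of the Wnt pathway was examined in 3 mouse tissues. The set held 60 genes that encode Wnt ligands, their receptors, secreted inhibitors, cytoplasmic transducers, TCF/LEF factors and modulators of the pathway, out of 22238 protein-coding gene names in the mouse annotation. A binding peak was assigned to a gene when the deposited peak list named that gene on either side of the peak at a listed distance of 0 to 50 Kb. By this rule 18 of the 60 genes had a peak in ECCs, 44 in the limb bud and 12 in PNST cells, and 46 had a peak in at least 1 tissue (76.7%). The same rule named 22.5%, 53.9% and 14.6% of all protein-coding gene names, and 58.7% in at least 1 tissue. The lists held 19 peaks beside these genes of 10965 in ECCs, 88 of 48965 in limb buds and 14 of 7538 in PNST cells.

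Twist1, a bHLH factor of mesenchymal cells, recognizes E-box sequences in DNA. Chromatin was immunoprecipitated with 5 μg of a Sigma antibody to Twist1 (T6451) and sequenced in 3 samples, all labelled strain FVB/N: atrioventricular canal endocardial cushions (ECCs, the mesenchyme that forms the heart valves) at embryonic day (E) 12.5, forelimb buds at E10.5, and a peripheral nerve sheath tumor (PNST) cell line grown in DMEM with serum. Embryonic tissue was pooled from wild-type litters and tumor cells from culture plates, so each tissue is 1 pooled sample, the embryonic samples mix the cell types of the dissected tissue, and the tumor sample is a single line. No tissue had a replicate, so no difference between tissues could be tested, and all intervals below cover counting error only.

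Wnt proteins are secreted glycoproteins that bind Frizzled receptors together with Lrp5 or Lrp6, or the receptor tyrosine kinases Ror1, Ror2 and Ryk. In the canonical branch the receptors act through Dishevelled proteins to stop the Axin, Apc and Gsk3b destruction complex from degrading β-catenin, which then acts with TCF/LEF factors at target genes, whereas Ror2 and Wnt5a are known for β-catenin independent signaling in cell polarity and migration. The pathway is known to pattern the limb bud and to act in heart valve mesenchyme.

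The 3 samples differed in depth. After at most 1 tag (a mapped read) was kept at each position, 3149934 tags remained in ECCs, 14893391 in the limb bud and 11823220 in PNST cells. The weakest peak held 5 tags in ECCs, 8 in the limb bud and 7 in PNST cells, or 1.59, 0.537 and 0.592 per 1000000 tags kept (depth-scaled tags below), so a region needed a higher share of the ECC tags to be listed there. The headers gave None as the control file, and the peak caller estimated fragments of 63 bp (ECCs), 48 bp (limb buds) and 52 bp (PNST), close to the read length of 50 bp. Except for 1 PNST peak at Ctnnb1, every peak beside a Wnt gene lay mostly in sequence present more than once in mm9. The limb bud list holds more tags and more peaks than the study describes for limb buds, and whether it is the same run or peak call is not given in the sources used here, which touches every limb bud value.

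Peaks overlapped in all 3 tissues at 6 regions beside Wnt genes: Ror2 intron 1, Wnt7b intron 3, Nkd1 intron 6, Nlk intron 1, Hipk2 intron 1 and a region upstream of Csnk1e. The regions at Ror2, Wnt7b and Nkd1 held runs of CCCTAA, the unit of the vertebrate telomere repeat, and no E-box, here any match to CANNTG, which reads the same on both strands. Over the union of the overlapping peaks, the Csnk1e and Hipk2 regions held 2 E-boxes each and the Nlk region 1. None of these had a CCCTAA run. Of these, only Hipk2 held E-boxes under the peak of every tissue, with 2 in each. At Csnk1e the limb bud peak held 2 and the ECC and PNST peaks 0. At Nlk the ECC and PNST peaks held 1 each and the limb bud peak 0. The CCCTAA regions were named here after their sequences had been read. The Hipk2 region is shown as the shared region nearest to an annotated start of its gene, as the union of the overlapping peaks on the plus strand of mm9, with E-boxes in capitals.
Hipk2 intron 1, chr6:38785914-38786130: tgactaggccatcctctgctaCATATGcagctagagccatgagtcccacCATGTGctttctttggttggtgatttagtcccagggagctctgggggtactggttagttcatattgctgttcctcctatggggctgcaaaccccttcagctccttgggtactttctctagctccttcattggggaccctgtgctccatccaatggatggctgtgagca

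The share of Wnt genes with a peak was above that of the annotation as a whole in each tissue, with wide intervals. In ECCs 30% of the 60 genes had a peak (95% Wilson interval 19.9 to 42.5), against 22.5% of all protein-coding names. In limb buds the share was 73.3% (61.0 to 82.9), against 53.9%, and in PNST cells it was 20% (11.8 to 31.8), against 14.6%. Of the 3 tissues, only in limb buds did the interval lie above the share of all genes. A peak in all 3 tissues was listed for 8 Wnt genes (13.3%, 6.91 to 24.2), against 6.56% of all genes. The 60 genes included those that the study followed by ChIP-qPCR because it had found Twist1 peaks beside them. They were Wnt5b, Fzd3, Fzd4, Fzd8, Ror2, Sfrp1, Lef1, Nlk, Hipk2, Csnk1e, Dab2ip and Mcc. The shares of Wnt genes are therefore not independent of the peaks, and shares without these genes were not computed.

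Gene length also differed between the sets. The Wnt genes spanned a median of 29.8 Kb and all protein-coding genes 15.4 Kb, and the Wnt genes with a peak spanned a median of 39.9 Kb against 12.8 Kb for those without one. Over the 60 genes, Spearman's rho between span and number of peaks was 0.13 in ECCs, 0.49 in the limb bud and 0.40 in PNST cells, given as a description. Gene spans extended by 50 Kb on each side held fewer peak summits per Mb at Wnt genes than at all genes. The values were 2.37 against 3.95 per Mb in ECCs, 12.0 against 17.1 in limb buds and 2.16 against 2.44 in PNST cells. At Wnt genes they rest on 22, 111 and 20 summits in 9.27 Mb. No interval was computed for them, and the PNST values were close. The plot of genes named and of summit density thus shows the 2 measures on opposite sides of the background. The part of gene length in the share of genes named was not tested.

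**Figure D1:**
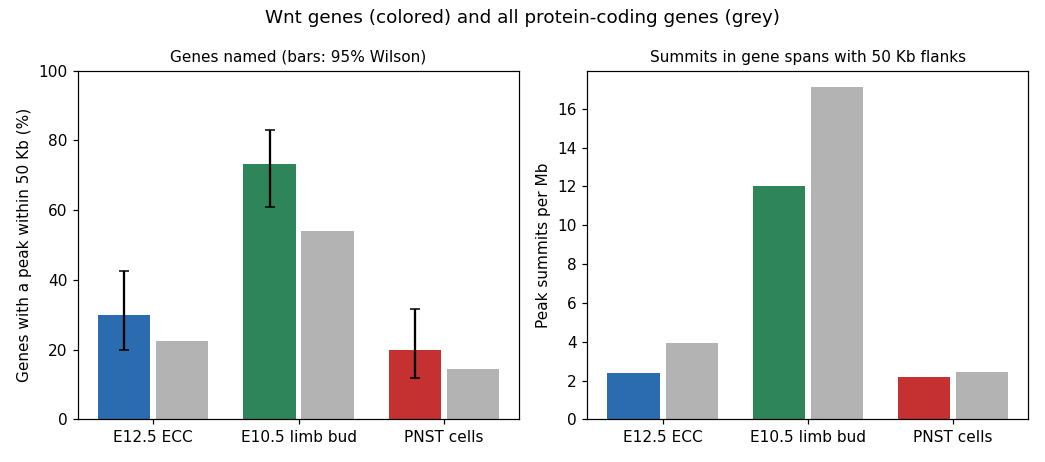
Left, the percentage of the 60 Wnt genes (colored, with 95% Wilson intervals) and of 22238 protein-coding gene names (grey) with a Twist1 peak listed within 50 Kb in each tissue. Right, peak summits per Mb in gene spans with 50 Kb flanks. The colored bars are higher than grey on the left in each tissue and lower on the right, where no interval was computed.

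Among the 19 Wnt ligands, 5 had a peak in ECCs (interval 11.8 to 48.8%), 13 in the limb bud (46 to 84.6%) and 2 in PNST cells (2.94 to 31.4%). Each interval included the share of all genes (22.5%, 53.9% and 14.6%). Wnt7b, a ligand known from lung and placental development, was the only ligand with a peak in all 3 tissues, at the CCCTAA region of intron 3, with 25 tags in ECCs, 33 in the limb bud and 17 in PNST cells. Its fold enrichment, which divides the summit signal by the local background, was 82.67, 59.27 and 51.58 in the same order, the 194th, 152nd and 124th highest of the lists. Wnt5b, a β-catenin independent ligand, had a peak of 16 tags in ECCs and one of 19 tags in limb buds that overlapped in intron 1, with fold enrichments of 52.91 and 18.27, and a second limb bud peak of 8 tags. The limb bud sequence at this site, chosen because the ECC peak ranked among the 5 strongest beside Wnt genes, was a run of short pyrimidine-rich units with no E-box to capitalize.
Wnt5b intron 1, chr6:119420244-119420463: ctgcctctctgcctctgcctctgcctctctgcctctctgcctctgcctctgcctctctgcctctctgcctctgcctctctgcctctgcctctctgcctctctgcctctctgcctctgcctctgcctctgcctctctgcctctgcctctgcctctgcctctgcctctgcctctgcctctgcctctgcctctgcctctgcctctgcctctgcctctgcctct

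Wnt5a, the ligand best known for limb outgrowth and Ror2 signaling, had no peak in ECCs or limb buds and 1 peak of 7 tags in PNST cells, the least that list holds, 13208 bp upstream of its transcriptional start site (TSS). Wnt2b had 1 peak in ECCs (6 tags) and 1 in limb buds (12 tags), at different positions. Wnt3 and Wnt9b, which are neighbors on chromosome 11, shared 1 ECC peak of 5 tags and 1 limb bud peak of 8 tags, and Wnt1 and Wnt10b on chromosome 15 shared 1 limb bud peak of 8 tags. These gene pairs therefore do not stand for separate peaks. Wnt7a and Wnt10a had 2 limb bud peaks each, and Wnt2, Wnt3a, Wnt8a and Wnt8b had 1 each, of 8 to 14 tags in all. No peak was assigned to Wnt4, Wnt6, Wnt9a, Wnt11 or Wnt16.

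Among the 10 Frizzled receptors, 5 had a peak in ECCs (interval 23.7 to 76.3%, against 22.5% of all genes). In limb buds 8 had one (49 to 94.3%, against 53.9%). In PNST cells none had one (0 to 27.8%, which includes the 14.6% of all genes). Fzd8 had 2 peaks of 5 tags in ECCs and 3 in limb buds of 8, 8 and 20 tags, with 1 overlap between the tissues. Fzd1 had 1 peak of 5 tags in ECCs and 3 in limb buds of 9, 12 and 16 tags, none of them overlapping. Fzd5 had 1 ECC peak of 7 tags and 2 limb bud peaks of 8 and 10 tags, also without overlap. Fzd4, a receptor also known in vascular development, was the single Wnt gene with a peak in ECCs alone, 26715 bp upstream of its TSS, with 6 tags and a fold enrichment of 14.01. Fzd2, Fzd3, Fzd7 and Fzd9 had peaks in limb buds alone, and Fzd10 had none. The Fzd3 peaks held 9 and 15 tags, and the Fzd2 peak, with 13 tags and a fold enrichment of 22.47, was the fifth strongest beside a Wnt gene in limb buds.

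Fzd6, a receptor known for planar cell polarity, had the third strongest ECC peak beside a Wnt gene, 31057 bp upstream of its TSS. This ECC peak held 12 tags with a fold enrichment of 61.73, the 337th highest of the ECC list. The limb bud peak that overlapped it held 9 tags with a fold enrichment of 13.05, and another limb bud peak lay on the other side of the gene. The ECC sequence is shown because of its rank among peaks beside Wnt genes, and it held no E-box.
Fzd6 upstream, chr15:38806650-38806915: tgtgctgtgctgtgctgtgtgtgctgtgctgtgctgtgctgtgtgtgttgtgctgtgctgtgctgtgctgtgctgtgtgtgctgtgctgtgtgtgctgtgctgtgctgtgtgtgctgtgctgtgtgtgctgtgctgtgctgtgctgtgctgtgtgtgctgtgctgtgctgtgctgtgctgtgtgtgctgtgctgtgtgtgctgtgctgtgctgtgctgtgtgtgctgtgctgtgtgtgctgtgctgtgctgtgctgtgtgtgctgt

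Ror2, a receptor tyrosine kinase for Wnt5a that is required for limb and skeletal growth, had more peaks than any other Wnt gene in limb buds and the strongest peak beside a Wnt gene in each tissue. It had 2 peaks in ECCs, 7 in the limb bud and 1 in PNST cells. The peaks over the CCCTAA region in intron 1 held 78 tags in ECCs, 83 in the limb bud and 59 in PNST cells, with fold enrichments of 133.48, 114.94 and 126.75, and their summits fell on the same base in all 3 tissues. These were the 44th, 35th and 10th highest fold enrichments in the lists. The depth-scaled tags were 24.8, 5.57 and 4.99. The fold enrichments of the 3 samples were thus close, and the depth-scaled tags were highest in ECCs.

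A second Ror2 site in intron 2 was shared by ECCs (8 tags, fold enrichment 31.75) and limb buds (10 tags, 9.30) and lay 149277 bp into the gene at the ECC summit. It is shown because it held E-boxes (capitals) where the intron 1 site had none.
Ror2 intron 2, ECC peak, chr13:53231563-53231791: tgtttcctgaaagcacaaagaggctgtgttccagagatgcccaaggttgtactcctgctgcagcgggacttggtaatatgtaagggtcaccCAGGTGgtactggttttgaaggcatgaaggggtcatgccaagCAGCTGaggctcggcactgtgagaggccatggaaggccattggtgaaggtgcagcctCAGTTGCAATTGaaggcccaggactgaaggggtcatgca
The other 5 limb bud peaks of Ror2 held 8 to 10 tags and lay within the gene or on either side of it. Ror1, the paralog of Ror2, had 4 limb bud peaks of 8 to 9 tags and 2 PNST peaks of 7 tags, none of them overlapping. Ryk, a Wnt co-receptor, had 2 limb bud peaks of 8 and 9 tags and 2 PNST peaks of 8 tags at other positions. Lrp6 had 1 limb bud peak of 8 tags and Lrp5 had none. Of the 5 receptors of this class, 4 thus had a limb bud peak (interval 37.6 to 96.4%, against 53.9% of all genes). A PNST peak was listed for 3 (23.1 to 88.2%, against 14.6%) and an ECC peak for 1 (3.62 to 62.4%, against 22.5%).

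**Figure D2:**
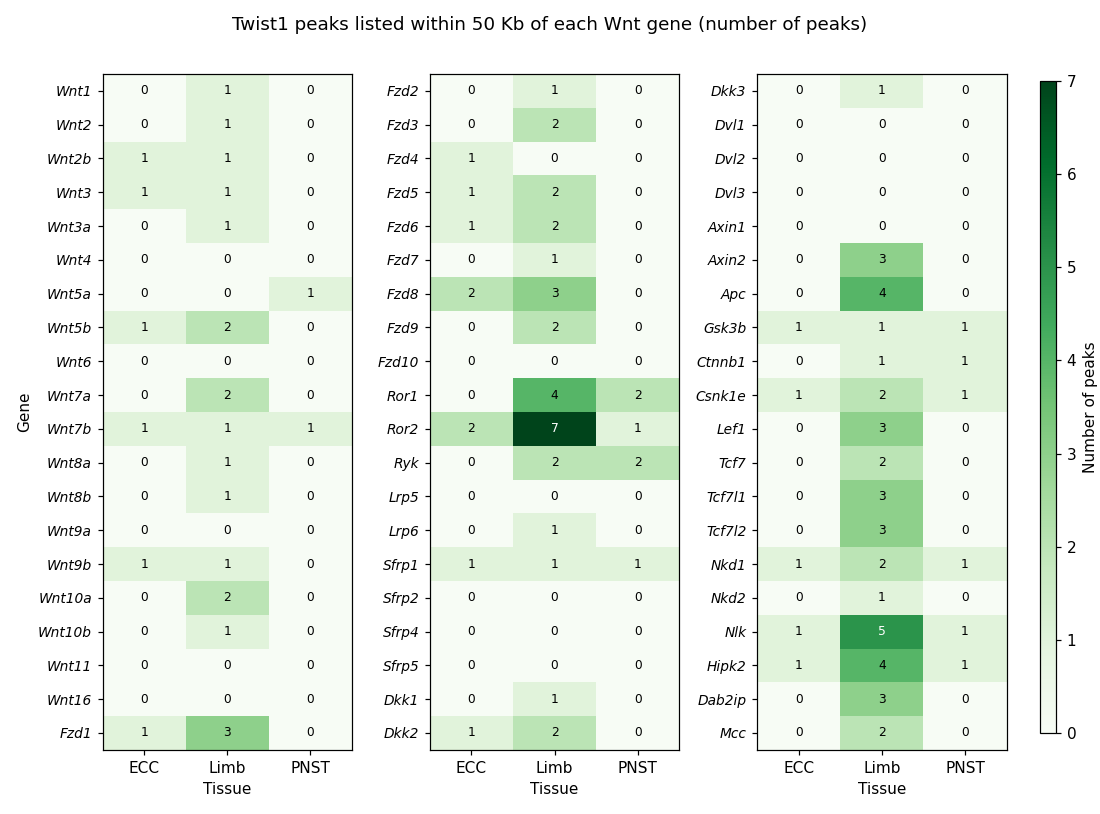
Number of Twist1 peaks listed within 50 Kb of each of the 60 Wnt genes (rows) in each tissue (columns). The limb bud column holds most of the peaks, with up to 7 at Ror2, and the PNST column is 0 for every Frizzled and TCF/LEF gene.

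Of the 7 secreted inhibitors, 2 had a peak in ECCs (interval 8.22 to 64.1%), 4 in the limb bud (25 to 84.2%) and 1 in PNST cells (2.57 to 51.3%). Each interval included the share of all genes (22.5%, 53.9% and 14.6%). Sfrp1, which binds Wnt proteins outside the cell, had 1 peak in each tissue, with 6 tags in ECCs, 9 in the limb bud and 8 in PNST cells, 51069 to 51281 bp from its TSS. The limb bud and PNST peaks overlapped, whereas the ECC peak lay beside them without overlap. Dkk2, a ligand of Lrp5 and Lrp6, had 1 ECC peak of 11 tags and 2 limb bud peaks of 8 and 9 tags, with no overlap. Dkk1 and Dkk3 had 1 limb bud peak each, of 10 and 11 tags. No peak was assigned to Sfrp2, Sfrp4 or Sfrp5.

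Among the 9 cytoplasmic transducers, 2 had a peak in ECCs (interval 6.32 to 54.7%), 5 in the limb bud (26.7 to 81.1%) and 3 in PNST cells (12.1 to 64.6%). Each interval included the share of all genes (22.5%, 53.9% and 14.6%). Csnk1e, a casein kinase that phosphorylates Dishevelled, had 1 overlapping peak in each tissue 29560 to 29573 bp upstream of its TSS, with 6 tags in ECCs, 23 in the limb bud and 8 in PNST cells and fold enrichments of 34.01, 44.64 and 21.24, and limb buds had another peak of 10 tags. Gsk3b, the kinase of the destruction complex, also had 1 peak in each tissue (6, 10 and 7 tags), but at 3 separate positions in its introns. Ctnnb1, which encodes β-catenin, had a limb bud peak of 12 tags upstream of the gene and a PNST peak of 9 tags in its 3′ UTR, with fold enrichments of 18.27 and 18.21. Apc had 4 limb bud peaks of 8 to 10 tags and Axin2, a feedback inhibitor and known target of the pathway, had 3 of 8 to 13 tags. No peak was assigned to Axin1, Dvl1, Dvl2 or Dvl3, which the lists named nowhere. Limb bud summits listed under other gene names lay within 50 Kb of the span of Dvl1 (4), Axin1 (2) and Dvl2 (1). The absence of the Dishevelled family therefore follows the gene names given in the lists.

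The TCF/LEF factors, through which β-catenin reaches target genes, were named beside peaks in limb buds alone. All 4 had a limb bud peak (interval 51 to 100%, against 53.9% of all genes), and 0 of 4 were named in ECCs or PNST cells (0 to 49%, against 22.5% and 14.6% of all genes), and each of these intervals included the share of all genes. Lef1 had 3 peaks of 9, 17 and 20 tags, the latter pair in intron 11. Tcf7l2 had 3 peaks of 9, 21 and 34 tags, Tcf7l1 had 3 of 8 to 11 tags and Tcf7 had 2 of 9 and 12 tags. Fold enrichment at these genes reached at most 20.6. Of these 11 limb bud peaks, 10 held at least the depth-scaled tags of the weakest PNST peak and 1 those of the weakest ECC peak. Summits listed under other gene names lay within 50 Kb of the span of Tcf7 (1 in ECCs and 2 in PNST cells) and of Tcf7l1 (1 in ECCs).

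All 6 modulators had a limb bud peak (interval 61 to 100%, against 53.9% of all genes). Nkd1, Nlk and Hipk2 had a peak in all 3 tissues (18.8 to 81.2%, against 6.56% of all genes). The study had chosen Nlk, Hipk2, Dab2ip and Mcc for primers from its own peaks, so these counts are not independent of the peaks. Nkd1, which binds Dishevelled, had peaks over its CCCTAA region of 11 tags in ECCs, 15 in the limb bud and 8 in PNST cells, with fold enrichments of 60.21, 39.14 and 24.27, and a second limb bud peak of 8 tags. Nlk, a kinase that phosphorylates TCF/LEF factors, had overlapping peaks of 7, 10 and 9 tags in intron 1, with fold enrichments of 43.29, 20.88 and 24.27, among 5 limb bud peaks in all. Hipk2, a nuclear kinase, had overlapping peaks of 5, 11 and 12 tags in intron 1, 1165 to 1203 bp from an annotated TSS of the gene, with fold enrichments of 37.60, 15.66 and 23.67, among 4 limb bud peaks in all. Of these loci only Hipk2 held more raw tags in PNST cells than in limb buds. The depth-scaled tags in PNST cells and limb buds were 1.01 and 0.739 at Hipk2. At Nlk they were 0.761 and 0.671, also higher in PNST cells, and at Nkd1 0.677 and 1.01. Dab2ip had 3 limb bud peaks of 10, 19 and 28 tags, Mcc had 2 of 8 and 9 tags, and Nkd2 had 1 of 16 tags.

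**Figure D3:**
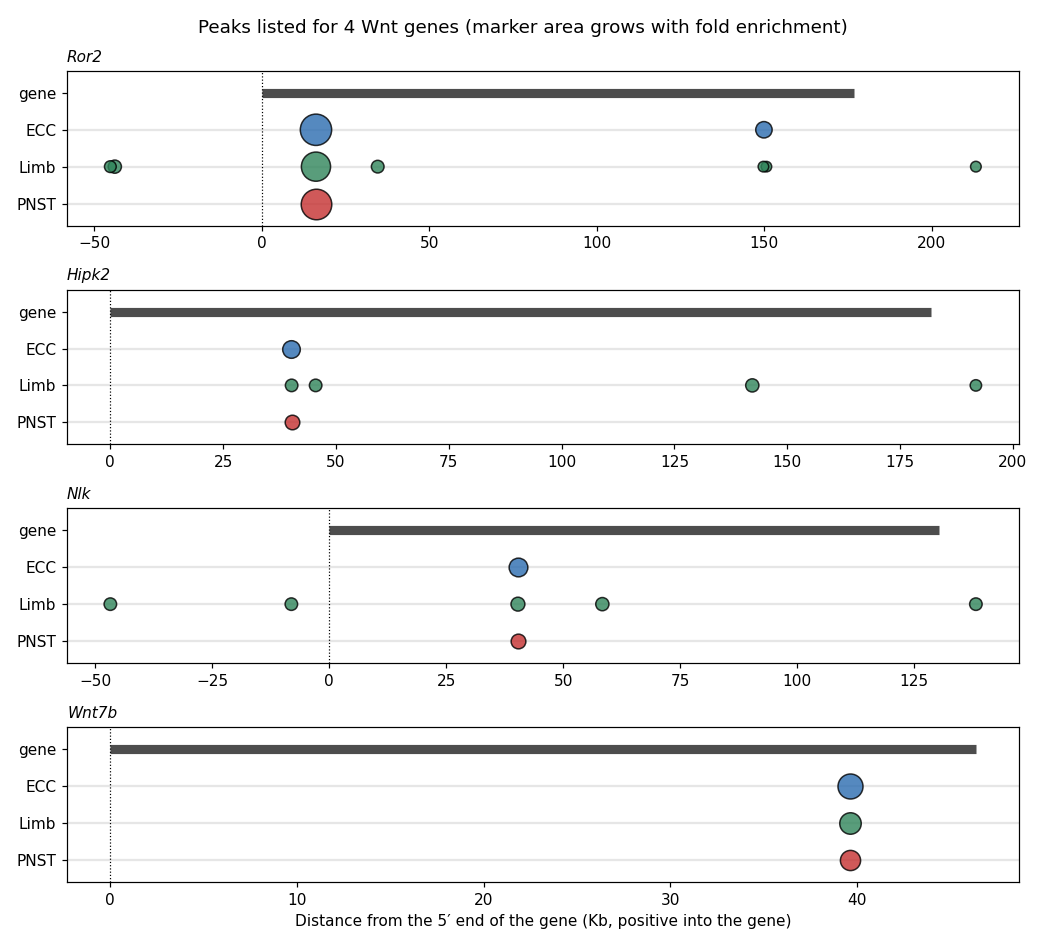
Peaks of ECCs (blue), limb buds (green) and PNST cells (red) along Ror2, Hipk2, Nlk and Wnt7b, by distance in Kb from the 5′ end of the gene (grey bar), with marker area growing with fold enrichment. At each gene 1 position carries a marker in all 3 tissues, and the remaining limb bud peaks stand alone except at the second Ror2 site.

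Overlap between tissues, meaning at least 5% of the counted peak, had larger shares beside Wnt genes than in the full lists, in small numbers of peaks and without a test. Of the limb bud peaks beside Wnt genes 10 of 88 were overlapped by an ECC peak (11.4%, 6.29 to 19.7, against 7.61% of all limb bud peaks) and 7 of 88 by a PNST peak (7.95%, 3.91 to 15.5, against 2.61%). A PNST peak overlapped 6 of the 19 ECC peaks (31.6%, 15.4 to 54.0, against 6.76%). Of the 14 PNST peaks, 6 overlapped peaks of both other tissues (42.9%, 21.4 to 67.4, against 9.03%). Without the 3 CCCTAA regions, 3 PNST peaks overlapped both other tissues. The regions in all 3 tissues at Ror2, Hipk2, Nlk and Csnk1e belong to genes that the study chose for primers from its own peaks. The larger shares beside Wnt genes are therefore not independent of the peaks compared. The remaining peaks were found in 1 tissue only: 9 of 19 in ECCs (47.4%), 77 of 88 in limb buds (87.5%) and 7 of 14 in PNST cells (50%), against 66.0%, 91.1% and 81.5% of all peaks.

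Depth limits what 1 tissue only can mean for limb bud peaks against ECCs. Of the 88 limb bud peaks, 4 held at least the 1.59 depth-scaled tags of the weakest ECC peak, and 2 of these 4 were overlapped in ECCs. The other 84 would not have reached the ECC minimum at the same share of tags, yet 8 of them were overlapped by an ECC peak. Conversely, all 19 ECC peaks were above the limb bud minimum, and 10 of them were overlapped there. Limb buds and PNST cells were closer in depth: 59 of the 88 limb bud peaks held at least the depth-scaled tags of the weakest PNST peak, and 7 of these 59 were overlapped by a PNST peak. All 14 PNST peaks were above the limb bud minimum, and 7 were overlapped in limb buds.

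CCCTAA runs, here 3 or more copies in a row on either strand, were found in 3 Wnt gene peaks of each tissue. In the lists as a whole they were present in 27.8%, 27.4% and 26.6% of the ECC, limb bud and PNST peaks that overlapped both other tissues. Over the full ECC, limb bud and PNST lists, 170, 174 and 148 placed peaks held one, and 145, 148 and 148 of these overlapped peaks of both other tissues. Among peaks found in 1 tissue only, 6 of 7109 held such a run in ECCs, 7 of 43557 in limb buds and 0 of 6033 in PNST cells, which allows up to 0.0636% by the Wilson bound. In 25578 windows of 150 bp placed evenly over mm9, 1 held a run.

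**Figure D4:**
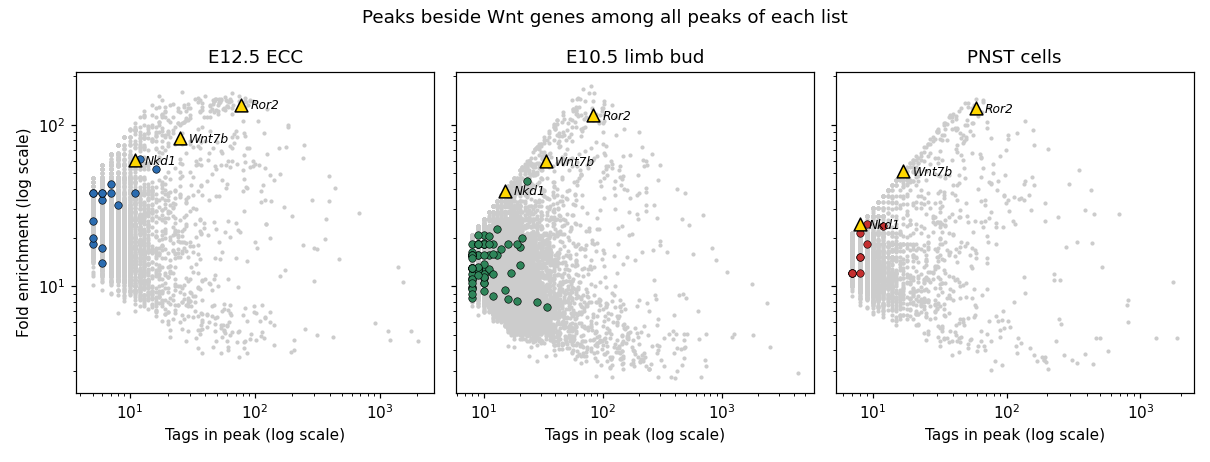
Tags against fold enrichment (both log scales) for all peaks (grey) and for peaks beside Wnt genes (colored) in each tissue. Gold triangles mark the peaks with CCCTAA runs at Ror2, Wnt7b and Nkd1. Ror2 stands highest among Wnt genes in each panel, and most other colored points lie at the low end of the tag scale.

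Most of these peaks were weak. The median peak beside a Wnt gene held 6 tags in ECCs, 9 in the limb bud and 8 in PNST cells, against 6, 10 and 8 in the whole lists, and the median fold enrichment was 37.6, 13.3 and 16.7 against 26.5, 14.4 and 15.2. At a p-value of 1e-10 or below, 6 Wnt genes kept a peak in ECCs, 10 in the limb bud and 3 in PNST cells, as did 684, 2325 and 336 of the 22238 names. The 3 in PNST cells were Ror2, Wnt7b and Nkd1.

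The share of peaks with an E-box was near that of the genome, with intervals that include it in each tissue. At least 1 CANNTG was present under 9 of 19 peaks in ECCs (47.4%, 27.3 to 68.3). In limb buds it was present under 56 of 88 (63.6%, 53.2 to 72.9), and in the PNST line under 7 of 14 (50%, 26.8 to 73.2). The shares of all placed peaks were 54.7%, 56.0% and 54.0%, and 54.8% of the evenly placed 150-bp windows held one. None of the 6 ECC peaks and none of the 3 PNST peaks that passed a p-value of 1e-10 held an E-box, against 5 of 10 in limb buds. The CCCTAA regions at Ror2, Wnt7b and Nkd1 gave all 3 of these PNST peaks and 3 of the 6 ECC peaks. They also gave 3 of the 10 limb bud peaks. The E-box share of all peaks at this p-value was not computed.

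Nearly all of the peaks lay in repeated sequence. More than 50% of the bases belonged to a 32-base sequence present more than once in mm9 for all 19 ECC peaks and all 88 limb bud peaks beside Wnt genes, and for 13 of the 14 in PNST cells. The shares of all placed peaks were 97.6%, 99.6% and 98.7%, whereas 21.59% of the evenly placed windows passed this limit. The exception was the PNST peak in the 3′ UTR of Ctnnb1, in which no 32-base sequence was repeated. How reads that match several copies were placed is not given in the sources used here, and its part in the listed positions was not tested.

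**Figure D5:**
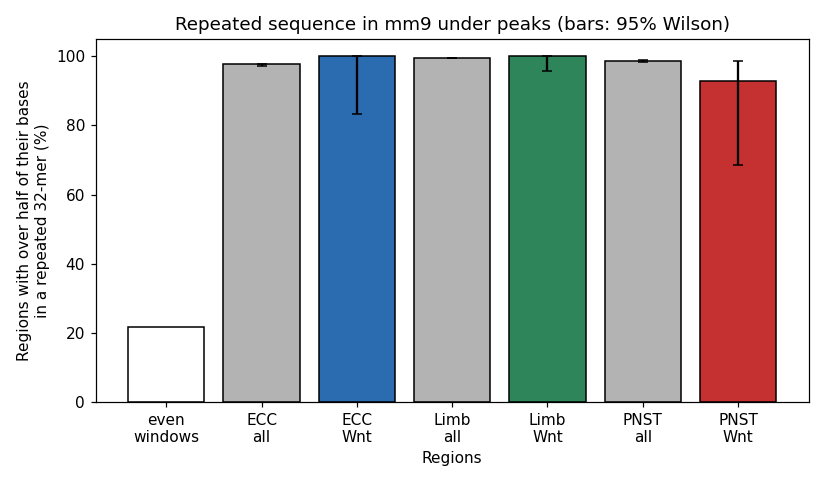
Percentage of regions in which more than 50% of the bases belong to a 32-base sequence found more than once in mm9, for even windows (white), all placed peaks (grey) and peaks beside Wnt genes (colored), with 95% Wilson intervals on the peaks. The windows are at 21.59%, and the peaks are between 92.9% and 100%.

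No peak assigned to a Wnt gene by the lists lay at a promoter. The summit was within 1 Kb of an annotated TSS of the gene for 0 of these peaks in each tissue. Peaks listed under other gene names were not included, and locations were not counted over all peaks of the lists. In ECCs 9 peaks were intronic and 10 intergenic, the limb bud counts were 33 and 55, and those of PNST cells 7 and 6, beside the 1 in a UTR. The listed distance was often to another part of the gene than its TSS: it ended exactly at the lower edge of an annotated exon for 93 of 158 peak sides and exactly at a TSS for 14. The summit was over 50 Kb from every annotated TSS of the named gene in 5 of 20 peak and gene pairs in ECCs, 25 of 90 in limb buds and 7 of 14 in PNST cells.

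No peak was assigned to 14 of the 60 genes. Wnt6, Wnt9a, Wnt16, Lrp5, Sfrp4, Sfrp5, Dvl1, Dvl2, Dvl3 and Axin1 were named nowhere in the lists, at any distance, and Wnt4, Wnt11, Fzd10 and Sfrp2 were named only beyond 50 Kb. Of the 14, Sfrp4, Sfrp5, Dvl1 and Dvl2 had a peak summit within 50 Kb of an annotated TSS in at least 1 tissue, so their absence here follows the gene names given in the lists.

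The wider pathway showed shares closer to the background. Of 64 further Wnt pathway genes, 13 had a peak in ECCs (20.3%, 12.3 to 31.7), 37 in limb buds (57.8%, 45.6 to 69.1) and 10 in PNST cells (15.6%, 8.71 to 26.4), against 22.5%, 53.9% and 14.6% of all genes. Only 62 of the 64 names were in the annotation, whereas these shares divide by 64. The list held genes of Wnt secretion and R-spondin reception, further antagonists, planar cell polarity genes, destruction complex and nuclear partners, and target genes. Peaks in all 3 tissues were listed for 2 of the 64 (3.12%, 0.861 to 10.7), against 6.56% of all genes. They were Znrf3, a ligase that removes Frizzled receptors, and Sostdc1, a secreted antagonist. Among 14 planar cell polarity genes, 2 had a peak in ECCs, 7 in the limb bud and 2 in PNST cells. Among 8 targets the counts were 3, 4 and 1. No interval was computed for these small groups, which are to be read beside the same 22.5%, 53.9% and 14.6% of all genes.

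The study designed ChIP-qPCR primers for 12 of the Wnt genes, and the 13 pairs were placed on mm9 by exact match. All 13 gave a product in mm9, and 12 gave exactly 1. Of the 2 Fzd8 products, 1 overlapped an ECC peak and lay 395 bp from a limb bud peak. None of the products of the other 12 pairs lay within 1 Kb of a peak in any tissue. The first Ror2 pair is shown because it belongs to the strongest Wnt gene locus. Its product, at chr13:53460453-53460625, lay in intron 5 of Sptlc1, 95057 bp from the nearest ECC peak, which was the Ror2 intron 1 peak. The second Ror2 product, in Ror2 intron 1, lay 95428 bp from the ECC peak in intron 2 (listed distance 4444 bp), on the same side of its peak as the first.
Ror2-a forward primer: aggcctgggaggatgcttta
Ror2-a reverse primer: ccctaaccacaaaggttgcc
For the Csnk1e, Nlk, Lef1, Fzd4, Sfrp1, Fzd3, Wnt5b and second Ror2 products, the nearest peak given here was not one assigned to that gene. The Csnk1e product, in Pla2g6 and 146802 bp from the Csnk1e TSS, lay 3968 bp from a limb bud peak. The Nlk product, in Slc46a1 and 101758 bp from the Nlk TSS, lay 5132 bp from an ECC peak. The Lef1 product, at -245519 bp from the Lef1 TSS, lay 7827 bp from a limb bud peak. The Fzd4 product lay in Odz4, 7121768 bp from the Fzd4 TSS and 456171 bp from the nearest ECC peak. The Sfrp1 product, in Ido2 and 1161774 bp from the Sfrp1 TSS, lay 11364 bp from a limb bud peak. The Fzd3 product, at -503168 bp from the Fzd3 TSS, lay 31628 bp from a limb bud peak. The Wnt5b product, in Adipor2, lay 3395 bp from a PNST peak, and the second Ror2 product 3147 bp from a limb bud peak. The build in which the primers were designed is not given in the sources used here, so whether a difference of build underlies these gaps was not tested, and the gaps do not show that the primers missed the peaks.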

How the data were processed

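Twist1 ChIP-seq was compared between 3 pooled samples, 1 per tissue, grouped by their labels. The authors mapped 50-bp single reads to mm9, naming Eland and Bowtie. Peak calling by the authors used MACS 1.4.2 on each sample (band width 300 bp, p-value cut-off 1e-05). The deposited lists hold raw tag counts for every peak. The p-values were deposited by the authors as a score, 10 times the −log10 of the MACS p-value. The deposited fold enrichment is a ratio of tags to the local background of MACS. A control of FVB/N genomic DNA is named in the methods, whereas the headers give None. Other deposited columns give lengths, summits and gene distances in bp. All 60 gene names matched the mm9 annotation (GENCODE M1), and 93.7% of the gene names listed within 50 Kb were protein-coding names in it.

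Peaks were assigned by listed gene and distance. Overlap, E-boxes, CCCTAA runs, repeated 32-base sequences and primer positions were computed from the mm9 genome with Python 3.11.15, pandas 2.3.3, numba 0.67.0 and pysam 0.24.0; figures were drawn with matplotlib 3.10.9. The sequences of 5 of the 6 regions shared by all 3 tissues are not reported here. The k-mer and overlap steps were tested on simulated data. Depth-scaled tags were tags per 1000000 tags left after the duplicate filter. Shares have 95% Wilson intervals. The genes and lists were chosen with earlier results of these data known. Genes named with values were those with primers, with peaks in all 3 tissues or overlapping peaks, the 5 with most peaks and the 5 strongest peaks per tissue, and those without a peak; the other members are given by counts and tags. Alternatives changed the p-value, fold, distance, overlap, repeat and E-box settings.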

Additional observations from a re-analysis of the deposited data

How the results depend on the processing

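With no replicates, an alternative was taken to move a count when it changed by over 1.5 times and a share when it left the main interval. Counts are given for ECCs, limb buds and PNST cells in that order. At a p-value of 1e-10 or below, 6, 10 and 3 Wnt genes had a peak, in 6, 10 and 3 peaks, and 4 limb bud peaks overlapped ECC peaks, 3 limb bud and 3 ECC peaks overlapped PNST peaks, and 3 were in all tissues; an E-box was in 0, 50 and 0% of them. At a fold enrichment of at least 20, limb buds fell to 8 genes and 8 peaks, PNST cells to 6 and 6, the overlap of limb buds with ECCs to 5, and the limb bud E-box share to 37.5%. With the limb bud list cut to the number of ECC peaks, limb buds had 16 genes and 19 peaks, 6 overlapping ECC peaks. Within 10 Kb, 7, 22 and 6 genes and 7, 31 and 7 peaks remained, with 4 overlaps between ECCs and limb buds and 3 in each other combination. With distances from the summit to a TSS, PNST cells had 9 peaks. Among peaks mostly outside repeated sequence, 0, 0 and 1 genes and 0, 0 and 1 peaks were left, with 0 overlaps. With an E-box within 50 bp of the summit, the share was 40.9% in the limb bud and 21.4% in PNST cells. Without CCCTAA runs, an alternative chosen after seeing the data, 3 ECC and 4 limb bud peaks overlapped PNST peaks and 3 PNST peaks overlapped both. The median tags in limb bud and PNST peaks were 1.5 and 1.33 times those in ECC peaks, but 0.317 and 0.355 times after scaling for depth. The other 66 values did not move by these limits. No paired analysis was possible because each tissue has 1 sample. Depth limits absence in ECCs most. The cause of each change not set by the alternative itself was not tested.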
